A study of Arabidopsis thaliana with 30 samples.

Results

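ATENSPM3 is a subfamily of En-Spm (CACTA) transposable elements (TEs), and its copies AT1TE42210, AT2TE18415 and AT2TE20205 were those to which split reads of newly inserted ATENSPM3 DNA were assigned in Arabidopsis thaliana plants. They are 3 of the 11 TE copies named as donors in lists of non-reference TE insertions. Their insertions make up 6 of the 17 listed, chloroplast ones included, and belong to 1 of 8 subfamilies. The copies were chosen by the listed split reads that name them, so the number of insertions and the reads that name a donor are given as a description, with no test. The lists come from DNA sequencing of aerial parts in 6 libraries, which ask whether TEs move when DNA methyltransferases are lost. The 3 mddcc libraries were from 11-week-old plants called mddcc_#1, mddcc_#2 and mddcc_#3, in which the CRISPR/Cas9 allele met1-8 was made in the drm1 drm2 cmt3 cmt2 background, so that all 5 mutated methyltransferase genes are defective. These mddcc plants were the first homozygous generation from heterozygous parents. The met1-9 library was from 5-week-old plants with an in-frame CRISPR/Cas9 deletion in MET1 made in wild type (WT), the ddcc library from 5-week-old drm1 drm2 cmt3 cmt2 plants obtained by crossing, and the WT library from 5-week-old Col-0. All plants were in the Col-0 background and grew in long days. With 1 library each of met1-9, ddcc and WT these genotypes have no replicate, and the age of the plants and the loss of all methyltransferases cannot be told apart in these data.

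En-Spm elements are DNA transposons that are cut out and pasted elsewhere by a transposase which recognises the ends of the element. Their ends carry short inverted repeats beginning with CACTA, and on integration the staggered cut leaves a short target site duplication (TSD) on both sides of the element. Full-length copies encode the transposase, while copies that have lost interior sequence can be moved by an enzyme made elsewhere in the genome as long as their ends are kept. In Arabidopsis such elements are normally silent and methylated, and they have been seen to move in lines with defective DNA methylation.

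The outermost bases of the donor copies are shown because the insertions are detected from reads that join these ends to another part of the genome. The copies were located in the TAIR10.1 reference by their ends, since the RefSeq annotation gives no TE names. AT1TE42210 was placed through a primer that fits only its left end, and the chromosome 2 copies by the order of their numbers. The left tip of all 3 copies read as follows over 25 bases, with CACTA in capitals, and the right tip on the same strand with TAGTG in capitals.
AT1TE42210 left tip: CACTAcaaaaaaagtcctcattgat
AT2TE18415 left tip: CACTAcaaaaaaagtcctcattgat
AT2TE20205 left tip: CACTAcaaaaaaagtcctcattgat
AT1TE42210 right tip: aataatgttgatatttgttgTAGTG
AT2TE18415 right tip: aataatgttgatatttgttgTAGTG
AT2TE20205 right tip: aataatgttgatatttgttgTAGTG
The tips of the 3 copies are therefore identical over these 25 bases. Read inward from both tips, the inverted repeat is perfect for 8 bases and holds 11 identical bases of 13 and 15 of 20 in each copy.

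AT1TE42210 lies on chromosome 1 at chr1:12942847-12947011 on the plus strand and is 4165 bp long. AT2TE18415 lies at chr2:4385856-4394311 on the minus strand and is 8456 bp long, and AT2TE20205 lies at chr2:4900803-4909281 on the plus strand and is 8479 bp long. Each copy stands between identical bases at both sides, 3 in number, which are CTA for AT1TE42210, TTT for AT2TE18415 and ATA for AT2TE20205. The A+T share of the copies is 62.7%, 61.7% and 61.5% in the same order, and that of the nuclear genome 64.0%.

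The short copy, AT1TE42210, lacks most of the interior of the long ones. Against AT2TE20205 it misses 4297 bp after its base 3394, bases 3469 to 7765 of the long copy counted from the left tip. Against AT2TE18415 it misses 4314 bp after the same base, bases 3359 to 7672 of that copy. A further stretch of 56 bp after base 479 is also present in both long copies and not in AT1TE42210. The missing interior of AT2TE20205 lies in the annotated pseudogene AT2G12210, of which it takes 64.5%, and that of AT2TE18415 takes 91.6% of the pseudogene AT2G11060 and 39.3% of the pseudogene AT2G11070. The longest open reading frame inside the missing segment has 196 codons in AT2TE20205 and 169 codons in AT2TE18415.

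What remains in AT1TE42210 includes the pseudogene AT1G35280, which covers 56.6% of the copy. Its longest open reading frame has 406 codons, against 383 codons in AT2TE18415 and 546 codons in AT2TE20205. Within the long copies, AT2G12210 covers 78.6% of AT2TE20205, while AT2G11060 covers 37.7% and AT2G11070 41.3% of AT2TE18415. Small annotated genes also overlap the long copies, AT2G11025 in AT2TE18415 with 274 bp, and AT2G12205 with 224 bp, AT2G12200 with 142 bp and the transcribed pseudogene AT2G12230 with 21 bp in AT2TE20205. The annotation thus divides the copies into pieces that do not follow the TE limits.

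**Figure D1:**
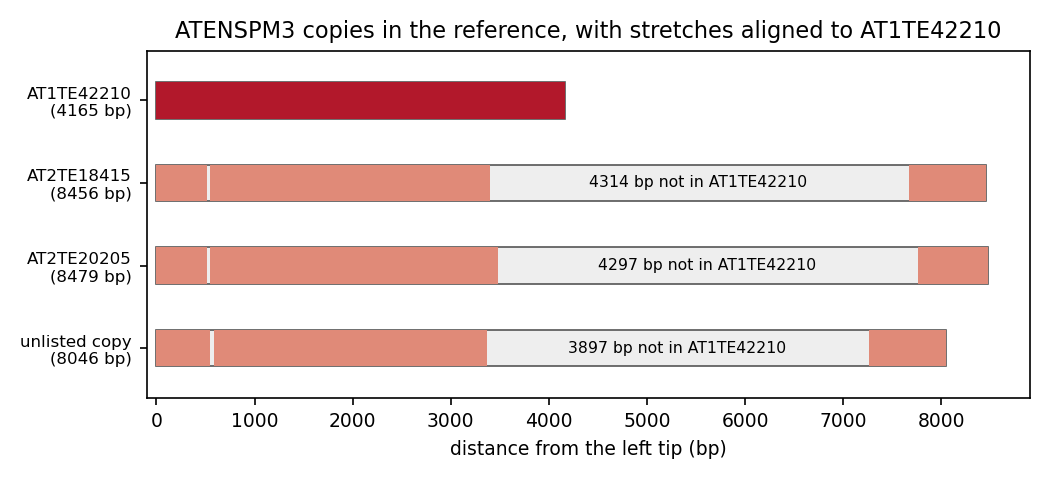
Scale map of the ATENSPM3 copies in the reference genome, with distance from the left tip in bp on the x axis and 1 bar per copy, including a copy on chromosome 1 with no assigned read ("unlisted copy"). Dark red is AT1TE42210, light red marks stretches that align to it, and the large grey interior of 4314 bp, 4297 bp or 3897 bp is what AT1TE42210 lacks.

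The donor copies are close to each other where they align, with gaps left out. Aligned bases were 98.8% identical between AT1TE42210 and AT2TE20205 (4085 bases), 97.6% between AT1TE42210 and AT2TE18415 (4054 bases) and 97.7% between AT2TE18415 and AT2TE20205 (8349 bases). At the ends, over the 300 bp to which reads had been mapped, the identity was 97.6% ± 0.49 (SD over 3 pairs at both ends, n = 6), with a range of 97.0% to 98.3%. AT1TE42210 and AT2TE20205 were identical over the outer 51 bases at both ends. AT2TE18415 differed from both at base 35 from the left tip, and on the right it was identical to AT1TE42210 over 51 bases and to AT2TE20205 over 89 bases.

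The stretch of the left end printed here, bases 31 to 58 from the tip, holds the earliest differences. Only such differences can tell a read of 1 copy from a read of another. Capitals mark the bases at which the copies differ.
AT1TE42210 left end: tagaGgatagctcattttcctTaactgc
AT2TE18415 left end: tagaTgatagctcattttcctGaactgc
AT2TE20205 left end: tagaGgatagctcattttcctCaactgc
At base 52 each copy has a base of its own. The right end has its earliest difference also at base 52, printed here on the same strand from base 66 to base 41 from the right tip.
AT1TE42210 right end: aaaacgctattaatAacatattatag
AT2TE18415 right end: aaaacgctattaatGacatattatag
AT2TE20205 right end: aaaacgctattaatGacatattatag
Here the base in capitals separates AT1TE42210 from both long copies. A read was kept when 20 or more of its bases lay in a TE end, so a kept read may hold no base that tells the copies apart. The reads counted per copy still add up to those of both extremities at 6 of 6 ATENSPM3 insertions. A read counted for a copy therefore need not hold a base particular to that copy.

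**Figure D2:**
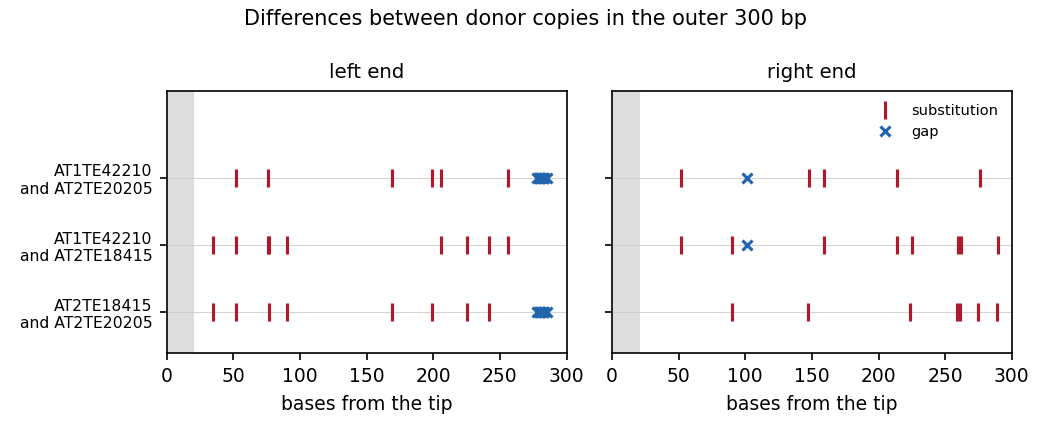
Positions of differences between the donor copies in the outer 300 bp, with bases from the tip on the x axis and 1 line per pair of copies, left and right end in separate panels. Red ticks are substitutions, blue crosses are gap positions and the grey band is the outer 20 bases. The earliest difference stands at base 35 on the left and base 52 on the right.

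Of all stretches of 20 bases within the outer 300 bp, a minority belong to 1 donor copy alone. The share was 24.6% at the left and 31.0% at the right end of AT1TE42210. It was 42.7% at the left and 29.5% at the right end of AT2TE18415, and 37.7% and 18.9% at those of AT2TE20205. The remaining stretches occur in at least 1 other donor copy.

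ATENSPM3 insertions were listed only in mddcc among these 6 libraries. There were 5 in mddcc_#1, 0 in mddcc_#2 and 1 in mddcc_#3, against 0 in met1-9, 0 in ddcc and 0 in WT. The mean of the mddcc plants was 2.0 ± 2.65 (SD, n = 3), so the spread between plants was larger than the mean, and mddcc_#2 does not differ from the libraries of the other genotypes in this count. All TEs together gave 7, 6 and 2 insertions in mddcc_#1, mddcc_#2 and mddcc_#3, 1 each in met1-9 and ddcc, and 0 in WT. These totals include insertions listed in the chloroplast genome, of ATREP10B in mddcc_#1 and of ATREP10B and ATREP19 in mddcc_#2. The ATREP10B site had the same limits in both plants. In mddcc_#2, which had no ATENSPM3 insertion, 2 were of ATCOPIA21, a Copia retrotransposon, and 1 was of VANDAL21, a DNA transposon of the MuDR superfamily. Leaving out mddcc_#1, which holds most of the ATENSPM3 insertions, the mean of the other mddcc plants was 0.50.

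**Figure D3:**
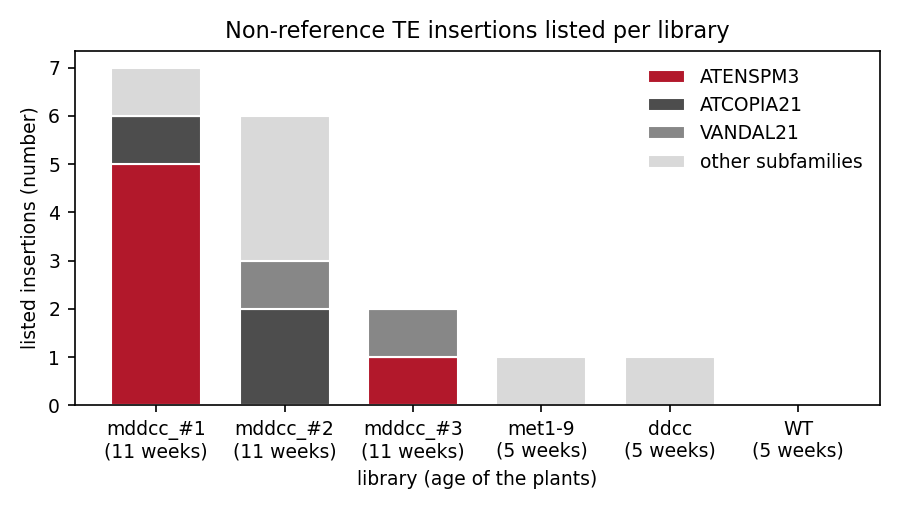
Number of listed non-reference insertions (y axis) in each library (x axis, with the age of the plants), stacked by TE subfamily with ATENSPM3 in red. ATENSPM3 accounts for 5 of 7 insertions in mddcc_#1 and 1 of 2 in mddcc_#3, and is missing from the bars of mddcc_#2, met1-9, ddcc and WT. Insertions listed in the chloroplast genome are included in the bars of mddcc_#1 and mddcc_#2.

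The insertions in mddcc lay on 4 chromosomes, with 2 on chromosome 1, 2 on chromosome 3, 1 on chromosome 4 and 1 on chromosome 5. None was listed on chromosome 2, on which AT2TE18415 and AT2TE20205 lie. On chromosome 1, the sites of mddcc_#1 were 6.0 Mb and 6.06 Mb from AT1TE42210 and 63.9 kb from each other. The chromosome 3 insertions came from different plants and were 1.12 Mb apart. No ATENSPM3 site was listed in more than 1 library.

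The reference sequence at the sites is shown because it is the target of the insertions. Capitals mark the overlap of the reads clipped at both extremities, with both listed limits included, and 10 bases on each side are in lower case, all on the plus strand of TAIR10.1.
mddcc_#1 chr1:18947368-18947374: gatatcctcaAGAAAAAaacaaatttt
mddcc_#1 chr1:19011273-19011280: tatttgcataGTTGCTACtggcttaatt
mddcc_#1 chr3:2999842-2999846: gtcgaacgtaGCATCttcttggaac
mddcc_#1 chr4:16446738-16446742: aggaaagaagAAAGAacaagttgtg
mddcc_#1 chr5:14093978-14093981: tgacaatgtgTATAaggaagaaag
mddcc_#3 chr3:4120598-4120603: atgcttcgaaCCCTCAtcaccctaac
No overlap was the same at any pair of these sites. The overlaps span 4 to 8 bp, and their A+T content runs from 2 of 6 bases at the mddcc_#3 site to 4 of 4 on chromosome 5.

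The listed TSD, which leaves out the limits themselves, was 5, 6, 3, 3 and 2 bp at the mddcc_#1 sites in the order printed and 4 bp at the mddcc_#3 site. Its mean was 3.83 ± 1.47 bp (SD, n = 6), and 2 of 6 sites had 3 bp, the length that stands beside the copies in the reference genome. With both limits included, as in the printed overlaps, 0 of 6 sites had that length and the mean was 5.83 ± 1.47 bp. The study kept only overlaps of more than 3 bp and under 20 bp. If these were counted with both limits, a site of 3 bp could not be listed, so the 0 of 6 says nothing about that length. Other insertions of mddcc had a listed TSD of 8.11 ± 2.85 bp (SD, n = 9), of which 3 were listed in the chloroplast genome. The 6 nuclear ones had 6.67 ± 2.34 bp (SD, n = 6), where the ATCOPIA21 insertions ranged over 5 to 6 bp and the VANDAL21 insertions over 9 to 10 bp. The ranges of ATENSPM3 and ATCOPIA21 overlap, and that of VANDAL21 stands apart from both.

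The A+T share around the sites varied. In the 100 bp on each side, the A+T share was 73.0% and 75.0% at the chromosome 1 sites, 71.0% on chromosome 3, 63.5% on chromosome 4 and 66.5% on chromosome 5 of mddcc_#1, and 69.5% at the mddcc_#3 site. The mean of 69.8% ± 4.23 (SD, n = 6) stands beside 64.0% in the whole nuclear genome, and the chromosome 4 site was just below that level. The other nuclear insertions of mddcc had 58.9% ± 5.88 (SD, n = 6), with a range of 52.0% to 66.5% that overlaps the ATENSPM3 range of 63.5% to 75.0%. No random sites were drawn, so these shares are a description.

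By the RefSeq annotation, 3 of the 6 insertions lay inside genes, all 3 in mddcc_#1 and all in protein-coding genes. The share of the nuclear genome inside genes was not computed, nor that of the other insertions, so this count is a description only. The insertion on chromosome 4 at 16446738 falls in coding sequence of AT4G34400 (chr4:16445141-16447822, plus strand), annotated as an AP2/B3-like transcription factor. It lies at coding base 616 of 1194, in codon 206 of 397, which is 51.6% of the coding length, and both annotated transcripts hold it in an exon, the fifth of 8 and the fourth of 7. This was also the ATENSPM3 insertion with the most split reads.

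The insertion on chromosome 5 at 14093978 falls in exon 2 of 2 of AT5G35945 (chr5:14093675-14094286, plus strand), annotated as an F-box/LRR protein, a class that includes substrate receptors of ubiquitin ligases. It lies at coding base 85 of 384, in codon 29 of 127, at 22.1% of the coding length. Both coding insertions thus lie within the open reading frame, and no transcript was measured in these libraries.

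The right-hand insertion on chromosome 1 at 19011273 lies at the 3′ end of AT1G51270 (chr1:19007364-19011285, plus strand), annotated as vesicle-associated protein 1-4. It is 12 bp before the end of the gene. It falls in the 3′ UTR of 3 of its 15 annotated transcripts and beyond the end of the other 12.

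The other insertions lay between genes. The left-hand site on chromosome 1 at 18947368 is 1556 bp from the 5′ end of FBH3 (AT1G51140), a basic helix-loop-helix transcription factor known as an activator of the flowering gene CONSTANS, and 996 bp from the 3′ end of DEG6 (AT1G51150), annotated as a DegP protease. The mddcc_#1 site on chromosome 3 at 2999842 is 1587 bp from the 5′ end of LOG2 (AT3G09770), a RING-type ubiquitin ligase, and 868 bp from the 3′ end of CCR1 (AT3G09780), a receptor kinase related to CRINKLY4. The mddcc_#3 site at 4120598 is 4647 bp from the 3′ end of AT3G12915, of the elongation factor G family, and 1186 bp from the 3′ end of BRG3 (AT3G12920), a RING-type ubiquitin ligase. Distances are from the nearer limit of the site, and at all 3 of these sites the nearer gene presents its 3′ end. Expression of these genes was not analysed here.

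A split read joins an end of a TE to the site, and it supports the upstream or the downstream extremity of the insertion. At the chromosome 4 insertion, 2 upstream and 6 downstream reads were listed, in sum 8. The chromosome 5 insertion had 1 upstream and 4 downstream reads, in sum 5, and the chromosome 3 insertion of mddcc_#1 had 1 and 3, in sum 4. Upstream reads exceeded downstream reads at the remaining sites. The chromosome 1 insertions both had 3 upstream and 1 downstream read, in sum 4 each, and the mddcc_#3 insertion had 4 and 1, in sum 5.

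Thus 5 of the 6 ATENSPM3 insertions had a single read at 1 extremity, against 2 of the 9 other insertions in mddcc, the chloroplast ones included. The smaller extremity had 1.17 ± 0.41 reads (SD, n = 6) for ATENSPM3 and 2.22 ± 0.83 reads (SD, n = 9) for the others, or 2.33 ± 0.82 reads for the 6 nuclear ones, while the sum over both extremities was 5.0 ± 1.55 reads and 6.11 ± 2.32 reads. Both ranges overlap, at 4 to 8 reads for ATENSPM3 and 4 to 11 for the others. These figures pool plants in which the subfamilies are not balanced. Plant mddcc_#1 held 5 of the 6 ATENSPM3 insertions, while mddcc_#2 held 0 and had 41 reads over 6 insertions. Within mddcc_#1 the ATCOPIA21 and ATREP10B insertions had 4 reads each, against 4 to 8 for ATENSPM3. Within mddcc_#3 the ATENSPM3 insertion had 5 reads and the VANDAL21 insertion 6. An extremity with 4 or more reads was present at 3 of the 6 ATENSPM3 insertions, 5 of the 9 other insertions in mddcc and 1 of the 2 outside mddcc. Over all ATENSPM3 sites, 14 reads were upstream and 16 downstream.

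**Figure D4:**
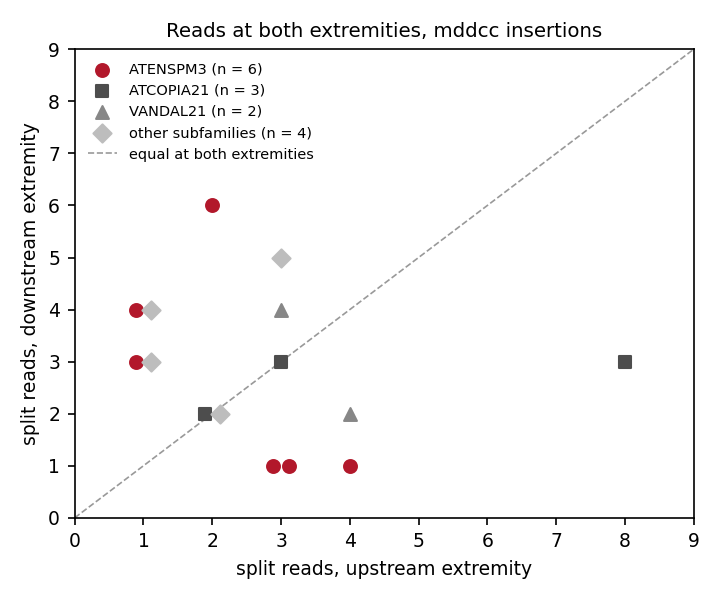
Split reads at the upstream (x axis) and downstream (y axis) extremity of each insertion listed in the mddcc plants, with points at the same place set slightly apart sideways and the dashed line for equal numbers. ATENSPM3 insertions (red circles) stand away from the line, with 1 read at an extremity in 5 of 6. Most of the 9 other insertions also stand away from it, and 3 lie on it.

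Among the donor copies, AT1TE42210 took the largest number of reads, 18 of 30 or 60%. AT2TE18415 and AT2TE20205 had 6 reads each, or 20%. The reads came from 6 insertions, and reads of a single insertion are not independent, so no interval is given. In mddcc_#1 the reads were 17 for AT1TE42210, 5 for AT2TE18415 and 3 for AT2TE20205. In mddcc_#3 they were 1, 1 and 3 in the same order, from a single insertion. The lead of AT1TE42210 therefore comes from mddcc_#1, and without that plant its share was 20% of 5 reads.

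By insertion, the short copy AT1TE42210 had at least 1 read at each of the 6 sites, AT2TE18415 at 4 and AT2TE20205 at 3. All 8 reads on chromosome 4 and all 4 reads at the right-hand site on chromosome 1 were assigned to AT1TE42210. On chromosome 3 in mddcc_#1 it had 3 reads and AT2TE18415 had 1. These sites are those at which AT1TE42210 stands alone at the top.

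At the left-hand site on chromosome 1, AT2TE18415 had 2 reads while AT1TE42210 and AT2TE20205 had 1 each. On chromosome 5 AT2TE18415 and AT2TE20205 had 2 reads each and AT1TE42210 had 1. At the mddcc_#3 site AT2TE20205 had 3 reads and the other copies 1 each. At these 3 sites all donor copies were named. AT2TE18415 stands alone at the top at the left-hand chromosome 1 site, and AT2TE20205 does so at the mddcc_#3 site. The counts differ by at most 2 reads, which does not separate the copies. The same holds for the 3 reads against 1 on chromosome 3 in mddcc_#1.

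**Figure D5:**
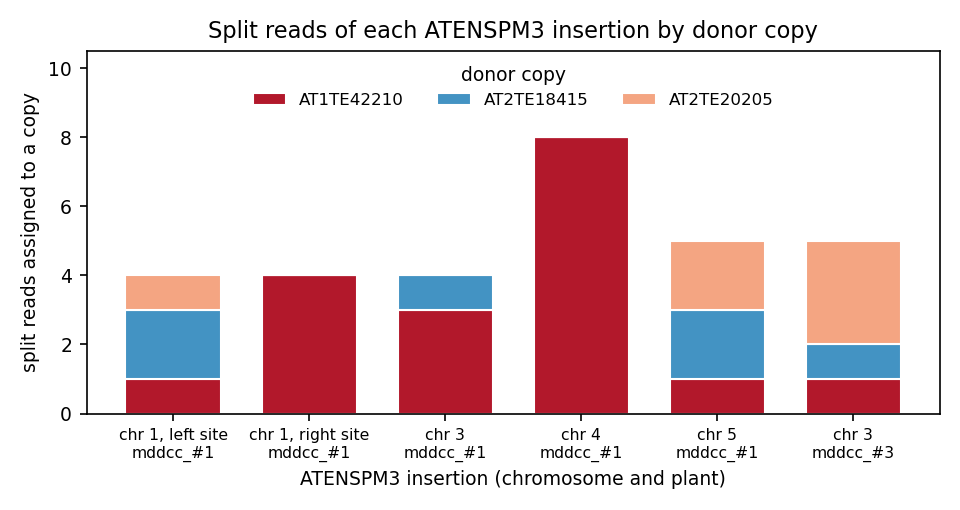
Split reads (y axis) of each ATENSPM3 insertion (x axis, chromosome and plant), stacked by the copy to which they were assigned. The chromosome 4 site and the right-hand chromosome 1 site are wholly AT1TE42210, with 8 and 4 reads, and 3 sites hold reads of all donor copies.

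Reads of a single insertion were divided among several copies at 4 of the 6 ATENSPM3 sites, against 0 of the 9 other insertions in mddcc. The copy counts accounted for all reads at only 7 of those 9. In mddcc_#2 they held 2 of 4 reads for ATREP18 and 7 of 8 for ATREP10B. Outside mddcc, the ARNOLDY2 insertion listed in ddcc also had reads of 2 copies. At these sites the list leaves the donor copy undetermined. The identical outer bases of the copies are given above, and their part in the divided counts was not tested, since the reads themselves are not analysed here.

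Primers designed for the insertions in mddcc_#1 were placed on the copies in the same way. The TE primer for the chromosome 4 site lies at bases 26 to 52 from the left tip of AT1TE42210, read toward the tip, so that its 5′ end lies on the base that is particular to that copy, and it has 1 exact match in the nuclear genome.
Primer, left end of AT1TE42210: aaggaaaatgagctatcctctactgct
The TE primers for the other mddcc_#1 sites lie in the right end and match 3 or 4 copies. The primer of the right-hand chromosome 1 site lies at bases 60 to 87 from the right tip in all donor copies.
Primer, right end of 3 copies: gggcataagatagcttttatgaaaacgc
Products of these primers are not analysed here.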

How the data were processed

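DNA sequencing libraries of aerial parts were used for 6 of 30 samples (3 mddcc plants, and 1 library each of met1-9, ddcc and WT); the bisulfite and RNA libraries were not used. Per the study's methods, reads were trimmed (Trimmomatic), mapped to TAIR10 (Bowtie2), and unmapped or discordant reads remapped to 300 bp TE extremities in a modified SPLITREADER procedure. The deposited lists hold counts of split reads per extremity and per donor copy, not normalized by the authors, with site limits and TSD. Library totals in the study's supplement give 4.49 to 6.83 M uniquely mapped reads for the mddcc plants and 11.7 to 13.5 M for the others. The stated minimum of 4 reads at an extremity was met by 3 of the 6 ATENSPM3 rows and 5 of the 9 other mddcc rows.

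Copies and sites were read from TAIR10.1 (RefSeq) with Python 3.11.15, Biopython 1.88, BLASTN 2.17.0 and MAFFT 7.526; ends needed 85% identity over 250 bp. Helper functions were tested on simulated data. Named were every donor copy, the gene holding each site or else the nearest gene on each side, and genes inside the copies. No test was run, because the members and lists were chosen with earlier results of these data known and insertions are not replicates.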

Additional observations from a re-analysis of the deposited data

How the results depend on the processing

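The mean number of ATENSPM3 insertions in mddcc plants was 2.0, and 0.333 when at least 2 split reads were required at each extremity (1 insertion left, in mddcc_#1), 1.0 with at least 4 reads at an extremity and 1.0 with a listed TSD of more than 3 bp. Leaving out each plant gave 0.50 to 3.0. An overlap of more than 3 bp with both limits included could not change the mean, because all listed ATENSPM3 overlaps span 4 to 8 bp. Per M uniquely mapped reads the values were 0.869 in mddcc_#1, 0 in mddcc_#2 and 0.222 in mddcc_#3, against 0 in the other libraries (mean of mddcc 0.364, or 0.0884 per M clean reads). The share of reads of AT1TE42210 was 20% to 68.0% when a plant was left out, and the number of insertions in genes 0 to 3. Reads per insertion were 1.17 when the smaller extremity was taken, and the site duplication 5.83 bp with both limits. The alternatives for A+T share and end identity moved the means by less than 1 SD. Within 1000 bp of a gene, counted from the left limit, lay 4 of the 6 insertions. This leaves out the left-hand chromosome 1 site, which is 996 bp from DEG6 by its nearer limit. No paired analysis was possible because the genotypes share only replicate number 1 and no test was run. With 4 to 8 reads per insertion, sites with fewer reads were not detectable, and a count of 0 does not show that a library has no ATENSPM3 insertion.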

Other observations

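A further copy with closely related ends lies on chromosome 1 at chr1:11302262-11310307 on the minus strand and is 8046 bp long. No split read was assigned to it. It overlaps the pseudogene AT1G31570, which covers 79.3% of it, and stands between identical TCT bases. It has the inverted repeat of the donor copies, 8 identical bases from the tip and 15 of 20, but its tips are identical to theirs over only 16 bases at both ends.
Unlisted copy left tip: CACTAcaaaaaaagtcatcattgat
Unlisted copy right tip: aataatgtagatatttgttgTAGTG
Over 300 bp its ends were 91.5% to 92.5% identical to those of the donor copies, and over the whole aligned length 94.5% to 95.1%. It keeps 3897 bp of the interior that AT1TE42210 lacks, with a longest open reading frame of 179 codons in that segment.

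More distant relatives of the ends are present elsewhere in the nuclear genome. The left 300 bp gave 18 further matches, of which 15 reach the tip, at 67.0% to 80.3% identity. The right 300 bp gave 15 further matches, of which 11 reach the tip, at 71.4% to 87.7% identity.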
